A study of Homo sapiens with 33 samples.

Results

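Replication-dependent histone cluster genes were followed through palbociclib treatment and washout in mesothelioma cell lines. The members were the genes of the expression matrix whose name begins with HIST1H, HIST2H, HIST3H or HIST4H and does not carry a pseudogene number (PS followed by a digit). This gave 76 of 58302 genes, of 87 with such a name. They comprised 6 genes of the linker histone H1 and, of the core histones, 17 genes of H2A, 22 of H2B, 16 of H3 and 15 of H4. By name, 56 belonged to the HIST1 cluster on chromosome 6, 15 to HIST2, 4 to HIST3 and 1 to HIST4. The later annotation used here (GENCODE 44, GRCh38) called 71 of them protein coding and 5 pseudogenes (HIST2H2BA, HIST2H2BB, HIST2H2BC, HIST2H3DP1 and HIST3H2BA).

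RNA-seq was available for 33 libraries of 6 established lines. H2052, H2452, H28 and MSTO-211H are malignant pleural mesothelioma lines that the study classed as sensitive to palbociclib, an inhibitor of the cell cycle kinases CDK4 and CDK6. The 2 resistant lines were MPP89, a mesothelioma line carrying a mutated RB1 gene, and MeT-5A, SV40-immortalized mesothelial cells that the study used as a model without functional pRb. Cells received palbociclib at 1 µM or its solvent DMSO (0.1%) for 9 or 10 days. The sensitive lines gave 11 pairs of DMSO and palbociclib libraries (3 from MSTO-211H, H28 and H2452 each and 2 from H2052), and the resistant lines gave 3 pairs (2 of MPP89 and 1 of MeT-5A). The remaining libraries were 1 of untreated MeT-5A and 4 of cells kept without the drug for 48 h after 10 days of palbociclib, 1 for each sensitive line. Each line is a single cell population, and replicates are separate experiments on it.

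These genes supply the histones that package newly made DNA. They are transcribed in S phase, under the coactivator NPAT and cyclin E-CDK2, and most of their mRNAs end in a short stem-loop that is bound by SLBP in place of a poly(A) tail. When DNA synthesis stops these mRNAs are rapidly degraded. A few members are also known to yield polyadenylated transcripts outside S phase.

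Sequence features of the members are given first, because they separate the H4 genes from the other classes and describe the RNAs being counted. A perfect stem of 6 base pairs closed on a loop of 4 bases was found in an annotated transcript of 69 of 76 members. A match was taken wherever it lay. In the annotated transcript of HIST2H2BE 1729 bases follow it, and in that of HIST1H2BG 18 bases do. The 4 commonest forms are printed here as DNA, with the loop in capitals.
Stem-loop of 41 H1, H2A, H2B and H3 members, HIST1H2BO included: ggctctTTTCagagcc
Stem-loop of 10 H1, H2A, H2B and H3 members: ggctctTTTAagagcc
Stem-loop of 10 H4 members: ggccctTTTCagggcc
Stem-loop of 4 H4 members: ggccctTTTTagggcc
All 15 H4 members carried the stem that begins with ggccct, and the 54 other members with a match carried the stem that begins with ggctct. The forms of HIST1H2BI, HIST1H3E, HIST1H4L and HIST2H2AC each occurred once. No match was found for HIST1H2AG, HIST1H2AK and the 5 pseudogenes, which says only that these letters are not in the annotated transcripts.

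RefSeq promoter windows (GRCh38.p14, 250 bases before to 50 after the start) were matched for 65 members. The TATAAA motif, counted when present on either strand, was present in 43 of 65 member windows (66.2%) and in 11.5% of all 35116 windows. CCAAT was present in 55 of 65 (84.6%) against 34.6% of all windows. It occurred in every matched window of H1, H2A, H2B and H3 but in only 3 of 13 of H4. ATTTGCAT, the octamer, was present in 26 of 65 (40%) against 1.77%, in 11 of 16 H2A and 14 of 18 H2B windows, in 1 of 12 H3 windows and in none of H1 or H4. Windows are shown for 3 genes that the results below turn on, with matches to any of these motifs on either strand in capitals. They are HIST1H2BO, with the largest fall after palbociclib, HIST1H4B, among the largest H4 falls, and HIST1H4I, an H4 gene that did not pass the test.
HIST1H2BO (chr6:27893175-27893474, plus strand): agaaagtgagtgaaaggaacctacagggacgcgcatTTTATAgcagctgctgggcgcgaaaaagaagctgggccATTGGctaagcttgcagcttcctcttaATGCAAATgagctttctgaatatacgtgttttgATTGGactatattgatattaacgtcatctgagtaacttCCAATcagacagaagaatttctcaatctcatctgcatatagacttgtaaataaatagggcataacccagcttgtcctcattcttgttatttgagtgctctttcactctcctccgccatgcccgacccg
HIST1H4B (chr6:26027234-26027533, minus strand): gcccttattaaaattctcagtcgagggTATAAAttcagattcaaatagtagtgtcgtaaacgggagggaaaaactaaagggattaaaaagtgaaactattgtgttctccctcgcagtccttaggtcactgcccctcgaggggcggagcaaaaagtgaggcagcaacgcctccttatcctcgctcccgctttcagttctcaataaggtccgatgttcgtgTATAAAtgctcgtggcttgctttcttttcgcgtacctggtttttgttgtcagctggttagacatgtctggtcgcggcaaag
HIST1H4I (chr6:27139032-27139331, plus strand): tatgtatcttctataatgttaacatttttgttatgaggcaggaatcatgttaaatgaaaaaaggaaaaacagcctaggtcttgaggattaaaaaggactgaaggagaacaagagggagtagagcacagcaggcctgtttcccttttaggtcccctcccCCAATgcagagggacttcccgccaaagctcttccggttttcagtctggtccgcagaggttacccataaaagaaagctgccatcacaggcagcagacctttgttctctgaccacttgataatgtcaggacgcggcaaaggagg
The window of HIST1H2BO held a match to each of these motifs on either strand. Its only TATAAA match, printed as TTTATA, lies on the opposite strand, in the part of the window nearest to the start of HIST1H2AM. HIST1H4B had TATAAA without CCAAT, and HIST1H4I had CCAAT without TATAAA. The window of HIST1H2BO shares 261 bases with that of its divergent neighbour HIST1H2AM. In all, 11 pairs of members had overlapping windows on opposite strands, and 10 of them joined an H2A to an H2B gene. A motif in the shared bases was counted for each gene of such a pair, whichever gene it serves.

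Values were deposited as counts scaled to a common total (CP20M) and rounded up to whole numbers, and column sums lay between 20007662 and 20021400. Whole numbers absent at low values put the depth of 23 libraries at an estimated 12670000 to 19730000 counted reads, so that 1 read was worth at most 1.58 CP20M. The RNAs RN7SK (6724 to 20339 CP20M) and RMRP (5777 to 12086), which lack a poly(A) tail, were counted in all libraries. KRT8 and KRT18, 2 keratins of mesothelial cells, were present in all lines, at no less than 3480 and 1497 CP20M. Of the more specific markers, MSLN was at most 15 CP20M in H28, WT1 at most 2 in MeT-5A, and KRT19 at most 13 in MSTO-211H, MPP89 and MeT-5A. CALB2 was at most 2 in H28, PDPN at most 4 in H28, 3 in MSTO-211H and 20 in MPP89, and UPK3B at most 11 in H2052 and 26 in MSTO-211H. Of 4 genes followed for other cell types, the T cell gene CD3E was at 0 throughout and the leukocyte gene PTPRC reached 42. The others, PECAM1 and EPCAM, reached 120 (in H2452) and 88 (in H28). Paired libraries were close in the resistant lines: the median absolute log2 difference between DMSO and palbociclib was 0.09 in each pair of MPP89 and MeT-5A, against 0.20 between the 2 DMSO libraries of MPP89.

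The summed level of the histone members was lower with palbociclib in each of the 11 pairs of sensitive lines. In DMSO the members made up 0.183% (lowest), 0.320% (median) and 0.531% (highest) of a library over 11 libraries. After palbociclib they made up 0.0253%, 0.0730% and 0.127%, with no overlap between the groups. The sum retained on average 19.9% of its DMSO level (mean log2 ratio -2.33 ± 0.50, SD, n = 11 pairs), with a range from 13.1% to 32.3%. In these bulk samples, fewer cells in S phase and less histone mRNA per cell cannot be told apart. In MPP89 the share was 0.435% and 0.487% with DMSO and 0.427% and 0.481% with palbociclib. MeT-5A had the highest share, 0.856% with DMSO, 0.869% with palbociclib and 0.834% untreated.

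**Figure D1:**
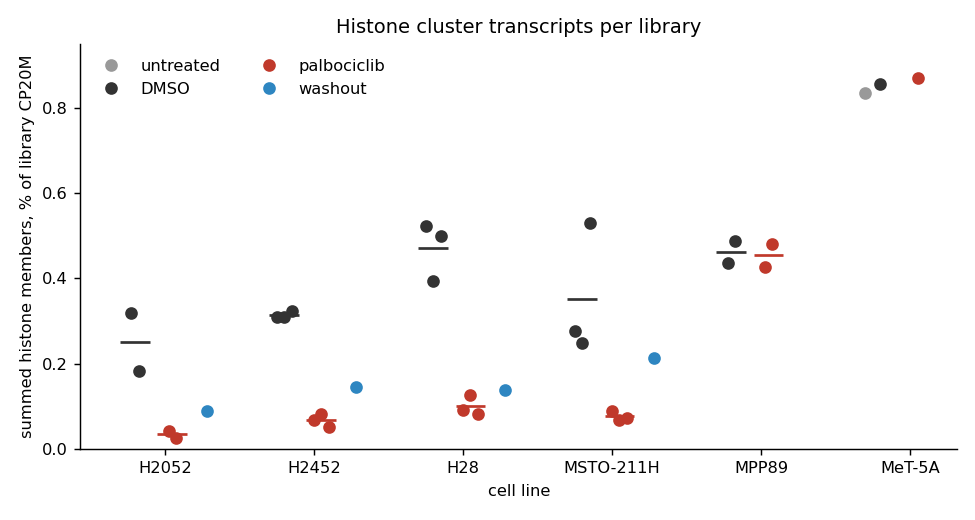
Summed CP20M of the 76 histone members as a percentage of all CP20M in each library, by cell line. Points are libraries, coloured by condition, and horizontal lines are means where a group has more than 1 library. Palbociclib libraries of the 4 sensitive lines lie between 0.0253% and 0.127%, below their DMSO libraries, and those of MPP89 and MeT-5A lie beside theirs.

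Gene by gene, 64 members reached 100 CP20M in at least 1 library and were tested with limma on log2(CP20M + 10), with experiment as a block. The other 12 stayed at or below 85 CP20M in all 33 libraries. Members were called at a fold change above 1.5 and a Benjamini-Hochberg FDR under 0.05 over all 17803 genes tested. Over the sensitive lines 54 of 64 members were called lower, where 9.37% of all genes were. By limma 0 were called higher (5.58% of all genes), and 0 had a higher level at an unadjusted p under 0.05. Their median log2 fold change was -2.41, beside -0.11 over all genes tested, and 42 members were lower in 11 of 11 pairs. DMSO and palbociclib libraries did not overlap for 18 members. The shares of all tested genes that did the same are not given, so these counts only describe the members. With median-of-ratios scaling the medians became -2.24 and 0.06. Over all genes that scaling called 920 lower and 1759 higher, against 1669 and 994 on the deposited scale, while 53 members were called lower.

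The linker histone genes, whose products bind the DNA between nucleosomes, fell in 4 of 5 tested cases, with a median of -2.65. HIST1H1E had 1567, 2651 and 8074 CP20M (lowest, median, highest of 11) with DMSO and 134, 529 and 1859 with palbociclib. Its groups overlapped but it was lower in every pair (log2 fold change -2.65, SE 0.17, adjusted p 2.81e-07 by limma). HIST1H1C, which also makes polyadenylated transcripts, fell (-2.19, SE 0.16), and so did HIST1H1D (-3.08, SE 0.38). HIST1H1A, silent in H28 and MSTO-211H, was the linker gene without a call (-0.67, SE 0.27, adjusted p 0.051 by limma).

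Of the H2A genes 15 of 15 tested were called lower, with a median of -2.58. HIST1H2AH had 481, 798 and 1739 CP20M with DMSO and 9, 86 and 263 with palbociclib. The groups did not overlap, and the log2 fold change was -3.47 (SE 0.27). HIST1H2AL (-3.30, SE 0.27) and HIST1H2AB (-3.21, SE 0.20) followed. The weakest falls in this class were those of HIST3H2A (-0.60, SE 0.15) and HIST1H2AC (-1.01, SE 0.13), both on the list of members known to yield polyadenylated RNA. For HIST3H2A the call did not hold under other scalings, and the gene was at 0 or 1 CP20M in each H28 library. HIST2H2AC, of chromosome 1, fell as well (-1.99, SE 0.19).

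Of the H2B genes 15 of 19 tested were called lower, with a median of -2.09. HIST1H2BO had 531, 1136 and 2924 CP20M with DMSO and 22, 97 and 414 with palbociclib. It showed the largest fall of all members, with no overlap (log2 fold change -3.61, SE 0.26, adjusted p 5.98e-07 by limma). HIST1H2BL (-3.05, SE 0.16) and HIST1H2BF (-2.83, SE 0.15) followed. HIST1H2BC, whose annotated span overlaps HIST1H4C and HIST1H1T so that reads may be shared, fell less (-1.76, SE 0.12). HIST1H2BK, a gene of the polyadenylated list, had 1026, 2739 and 3640 CP20M with DMSO and 423, 1433 and 2159 with palbociclib. Its groups overlapped and its fall was small (-1.09, SE 0.18). HIST1H2BE (-0.77, SE 0.38), HIST1H2BH (-1.08, SE 0.50) and the pseudogenes HIST2H2BA (-0.26, SE 0.11) and HIST2H2BB (-0.41, SE 0.15) were not called.

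Of the H3 genes 11 of 14 tested were called lower, and their median, -2.80, was the lowest of the classes. HIST1H3B had 1163, 3134 and 6744 CP20M with DMSO and 64, 214 and 1154 with palbociclib, without overlap (log2 fold change -3.47, SE 0.24, adjusted p 4.48e-07 by limma). HIST1H3J (-3.24, SE 0.19), whose span overlaps HIST1H2AM, and HIST1H3H (-3.13, SE 0.18) followed. The name HIST1H3D stands for 2 gene identifiers, and the longer, ENSG00000282988, spans both the other and HIST1H2AD, so its value (HIST1H3D_ENSG00000282988, -2.74, SE 0.15) is uncertain. HIST1H3E fell short of the fold limit (-0.43, SE 0.13, adjusted p 0.014 by limma), HIST1H3F was not called (-1.42, SE 0.63), and HIST2H3DP1 stood at -0.08 (SE 0.11).

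Of the H4 genes 9 of 11 tested were called lower, with the weakest median, -1.88. HIST1H4B had 854, 1908 and 3198 CP20M with DMSO and 87, 397 and 639 with palbociclib. The groups did not overlap (log2 fold change -2.45, SE 0.15, adjusted p 2.81e-07 by limma). Falls were also called for HIST1H4A (-2.80, SE 0.21), HIST1H4D (-2.38, SE 0.42), HIST1H4E (-1.74, SE 0.15) and HIST4H4, the only member on chromosome 12 (-1.14, SE 0.16). The value of HIST1H4D includes H28, where it was silent (-0.03), beside -3.27 in H2052, -3.53 in H2452 and -2.97 in MSTO-211H. HIST1H4F (-0.47, SE 0.23) and HIST1H4I (-0.22, SE 0.27) were not called.

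**Figure D2:**
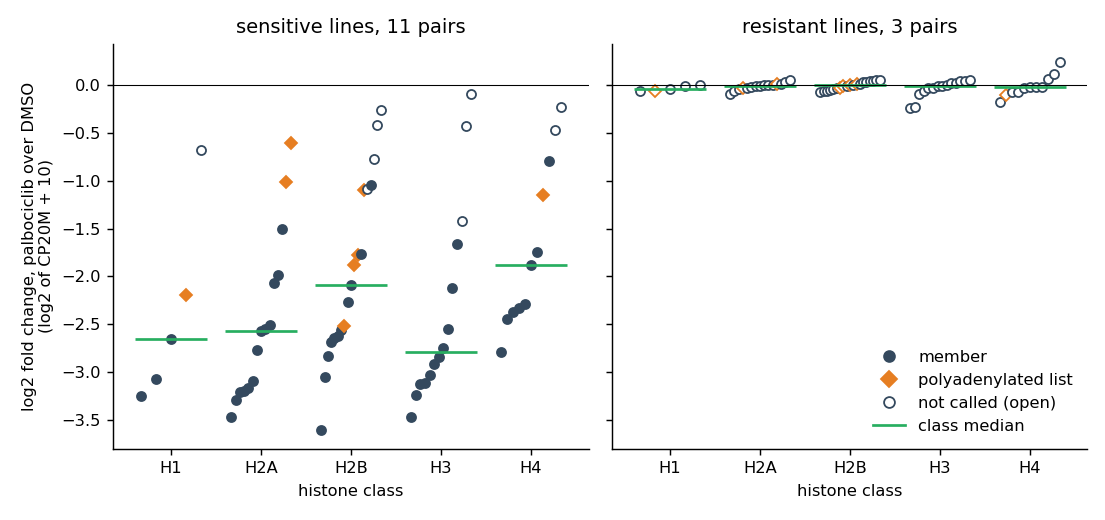
Log2 fold change of palbociclib over DMSO for each of the 64 tested members, by histone class, in the sensitive lines (left, 11 pairs) and the resistant lines (right, 3 pairs). Filled symbols are called members, orange diamonds are members of the polyadenylated list and green lines are class medians. Class medians lie between -2.80 (H3) and -1.88 (H4) on the left, and no member is called on the right.

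Summed by class, H3 kept 10.9% of its DMSO level (log2 ratio -3.19 ± 0.67, SD, n = 11 pairs), H1 16.2% (-2.63 ± 0.66), H2A 20.8% (-2.27 ± 0.53), H2B 24.4% (-2.04 ± 0.43) and H4 26.0% (-1.94 ± 0.55). H3 kept less than H4 in 11 of 11 pairs, and it was the lowest of the 5 classes in 9 of 11. Within pairs, H2A also kept less than H4 in 11 of 11 and less than H2B in 10 of 11, and H2B kept less than H4 in 9 of 11. H1 kept less than H2A in 9 of 11 pairs. Without the polyadenylated list the mean log2 ratio of H2A was -2.84. The list holds members of every class but H3, so the class ratios include listed members to unlike extents.

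The 8 members known to make polyadenylated transcripts were all called lower, with a median of -1.46, beside 46 of 56 and -2.55 for the other tested members. Among members with a DMSO mean of at least 500 CP20M the medians were -1.78 (7 members) and -2.76 (34 members). The list made up 18.4%, 20.8% and 25.2% (lowest, median, highest) of the member sum with DMSO and 28.9%, 37.6% and 44.5% with palbociclib, without overlap. Its sum kept a larger share of the DMSO level than the sum of the other members in 11 of 11 pairs. HIST1H2BD (-1.78, SE 0.12) and HIST2H2BE (-1.89, SE 0.12) lay in the middle of the list and HIST1H2BJ fell most (-2.52, SE 0.38). None of the 4 members known from testis or germ cells (HIST1H1T, HIST1H2AA, HIST1H2BA and HIST3H3) reached 100 CP20M.

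By position, the 20 tested members beyond 27 Mb of chromosome 6 had a median of -2.80 with 19 called lower, and the 31 before it a median of -2.45 with 25 called. The 12 tested members of chromosome 1 had a median of -1.58, with 9 called. The uncalled ones were the pseudogenes HIST2H2BA, HIST2H2BB and HIST2H3DP1, and HIST2H2BE and HIST3H2A are on the polyadenylated list. This median therefore does not compare like genes by position. Divergent partners are compared pair by pair. Over the 10 such pairs with both genes tested, the median gap in log2 fold change was 0.20. The smallest gap was that of HIST1H2BJ and HIST1H2AG (-2.52 and -2.55), and the largest, 0.83, that of HIST1H2AJ and HIST1H2BM (-3.10 and -2.27). Tested members with TATAAA had a median of -2.41 (36 members) and those without it -2.19 (19 members). For the octamer the medians were -2.57 (24 members) with and -2.09 (31 members) without. For CCAAT they were -2.52 (49 members) with and -1.81 (6 members) without. The octamer lay almost only in H2A and H2B windows, and only H4 windows lacked CCAAT. These contrasts therefore do not separate a motif from the histone class.

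In the resistant lines no member moved past the thresholds. Over the 3 pairs of MPP89 and MeT-5A, 0 of 64 members were called lower and 0 higher by limma, where 0% of all genes were called either way and 1258 genes had an unadjusted p under 0.05. At that unadjusted p 0 members were lower and 2 higher by limma. The median log2 fold change of the members was -0.01, and member sums stood at 98.1%, 98.8% and 102% of the paired DMSO library. HIST1H2BO had 1579 and 1467 CP20M with DMSO and 1611 and 1510 with palbociclib in MPP89, and 2673 with DMSO and 2628 with palbociclib in MeT-5A. HIST1H3B stood at 0.01 (SE 0.03) and HIST1H1E at 0.01 (SE 0.03). Within MPP89 alone 0 members were called lower or higher, again with a background of 0% both ways and 918 genes at an unadjusted p under 0.05.

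The difference between the sensitive and resistant responses was tested as an interaction, with 11 pairs from 4 lines and 3 pairs from 2 lines. The response was lower in the sensitive lines for 40 of 64 members, where 5.62% of all genes were called so, and higher for 0 (1.13% of all genes; 0 members at an unadjusted p under 0.05 by limma). By class these were 3 of 5 H1, 13 of 15 H2A, 12 of 19 H2B, 7 of 14 H3 and 5 of 11 H4 genes. HIST1H2BL (difference -3.09, SE 0.31, adjusted p 0.000246 by limma) and HIST1H2BF (-2.89, SE 0.29) were, with HIST2H2BF, the members with the smallest p. HIST1H2BK (-1.11, SE 0.35, adjusted p 0.058 by limma) and HIST4H4 (-1.05, SE 0.33) missed the threshold, as did HIST1H4I (-0.47, SE 0.55).

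Each sensitive line showed the fall, over a different number of members. Within H2052 57 members were called lower (background 13%) and 0 higher (4.67%). Within H2452 58 were called lower (10.8%) and 0 higher (6.04%), within MSTO-211H 51 lower (7.94%) and 0 higher (5.90%), and within H28 39 lower (7.34%) and 2 higher (5.89%). At an unadjusted p under 0.05, limma gave 0 members higher in H2052, H2452 and MSTO-211H. These fits rest on 2 or 3 pairs: without any 1 pair, no member was called in H28 or MSTO-211H, and in H2452 between 0 and 48 were. Pair medians nevertheless kept 1 direction, at -1.76, -2.09 and -3.09 in MSTO-211H, -2.14, -1.41 and -2.11 in H28, -2.59, -2.19 and -3.17 in H2452, and -3.04 and -3.03 in H2052. Members with a DMSO mean of at least 100 CP20M in a line were mostly lower in every pair of it. They were 54 of 54 in H2052, 55 of 57 in H2452, 35 of 36 in H28 and 49 of 50 in MSTO-211H. The limit was set on the same DMSO libraries that are compared, which favours a fall. The share of all genes lower in every pair of a line is not given, so these counts only describe the members.

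The F test of response differences among the sensitive lines called 30 of 64 members, where 37.1% of all genes were called. Most of these calls lay with members that some line hardly used. Of 35 members with a DMSO mean of at least 100 CP20M in each of the 4 lines 6 were called, and of the 29 others 24 were, a limit chosen after the values were seen. HIST1H3F, HIST1H2BH, HIST1H2BE, HIST1H4L and HIST1H4F had the smallest p. HIST1H3F, HIST1H2BH and HIST1H4F were silent with DMSO in H2052, H28 and MSTO-211H, and HIST1H4L was silent in H28. A silent gene cannot fall, so for these 4 members the F test restates the difference in DMSO level and shows no separate difference in response. HIST1H3F had 1138, 1167 and 1263 CP20M with DMSO and 23, 34 and 15 with palbociclib in H2452, and never more than 5 in H2052, H28 or MSTO-211H. HIST1H2BH had 750, 706 and 694 with DMSO and 32, 63 and 21 with palbociclib in H2452, and never more than 4 in the other sensitive lines. HIST1H4L fell from 687 and 325 to 60 and 40 in H2052 and was at most 3 in H28.

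HIST1H2BE and HIST1H4I rose in H28. HIST1H2BE had 48, 73 and 75 CP20M with DMSO and 109, 137 and 180 with palbociclib, without overlap (log2 fold change 1.01, SE 0.14, adjusted p 0.030 by limma). It fell in H2052 (-2.25, SE 0.29) and H2452 (-2.16, SE 0.15). HIST1H4I, named after its values were seen, had 93, 108 and 120 CP20M with DMSO and 220, 182 and 269 with palbociclib in H28, without overlap (0.99, SE 0.15, adjusted p 0.033 by limma). It fell in H2052 (-1.90, SE 0.23) and stood at -0.38 (SE 0.09) in H2452 and -0.16 (SE 0.19) in MSTO-211H, where it had 695, 589 and 1280 CP20M with DMSO and 706, 646 and 825 with palbociclib. HIST1H2BK differed likewise: in MSTO-211H it had 2051, 1771 and 3547 CP20M with DMSO and 2048, 1650 and 2159 with palbociclib (-0.27, SE 0.17), and it fell in H28 (-1.75, SE 0.11). The calls in H28 were lost without any 1 of the 3 pairs, and the direction was kept.

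The lines also differed in which members they used without the drug. Over the 13 DMSO libraries of H2052, H2452, H28, MSTO-211H and MPP89 the F test called 61 of 64 members, where 94.3% of all genes were called, so that a difference as such set no member apart. With a limit of 10 CP20M in every DMSO or untreated library, chosen after the values were seen, 17 tested members were silent in H28. They were 4 in H2052, 4 in MSTO-211H and 2 in H2452, and none was silent in MPP89 or MeT-5A. Fold changes of such members over the sensitive lines, and medians and gaps that hold them, include lines where no fall could be seen. HIST1H1B, a linker histone gene, had 0, 0 and 7 CP20M with DMSO in H28, where the other DMSO libraries had 1667 to 8091. HIST1H3C had 3, 4 and 3 CP20M in H28 and 682 to 3870 elsewhere, and HIST1H2AG had 3, 2 and 7 against 901 to 4455. The neighbours HIST1H4F, HIST1H3F and HIST1H2BH (chr6:26240393-26252075) were silent together in H2052, H28 and MSTO-211H. The member sum of H28 was not low: at between 0.394% and 0.522% of the library with DMSO it was above each library of H2052 and H2452.

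**Figure D3:**
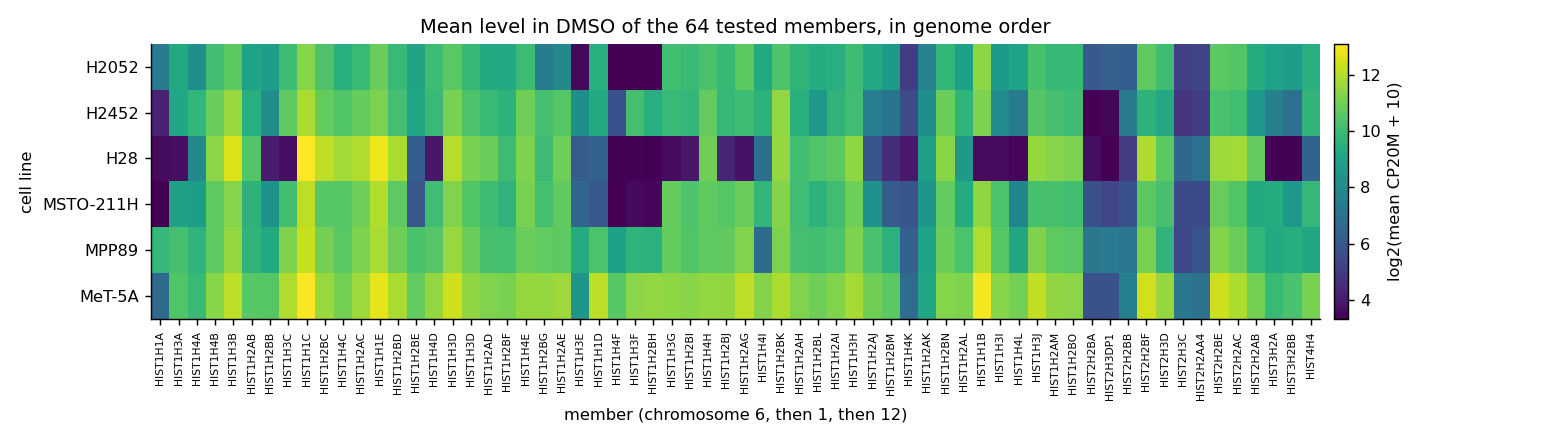
Mean DMSO level of the 64 tested members in each line, as the log2 of CP20M + 10, with members in genome order along chromosome 6, then 1, then 12. Dark cells are members at or near 0: H28 has 17 silent members in its control libraries, scattered among active ones, and HIST1H4F, HIST1H3F and HIST1H2BH are dark in H2052, H28 and MSTO-211H.

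The 10 genes of an S phase list (PCNA, RRM2, TYMS, CDC6, CDC45, MCM2, MCM5, GINS2, E2F1 and RRM1), which serve DNA replication, gave the context of the fall. All 10 were called lower over the sensitive lines, with a median of -1.33, and the calls of MCM2 (-0.53), MCM5 (-0.43) and E2F1 (-0.56) were lost without H2452, those of MCM5 (-0.79) and E2F1 (-0.85) also without H28. Among them were RRM2, the regulated subunit of ribonucleotide reductase (-2.69, SE 0.39), and PCNA, the sliding clamp (-1.54, SE 0.19). The summed level of the list kept 17.3%, 40.5% and 99.2% (lowest, median, highest) of DMSO over the 11 pairs, more than the histone members in 10 of them. MSTO-211H stood apart: in its pairs the list kept 99.2%, 85.1% and 45.4%, while the histone members kept 32.0%, 27.4% and 13.8%. Within that line 1 of the 10 genes, CDC45 (-1.5, SE 0.31), was called lower, beside 51 of 64 histone members and 7.94% of all genes. The missing calls do not show missing falls: RRM2 stood at -2.06 (SE 0.63, adjusted p 0.094 by limma), TYMS at -0.98, RRM1 at -0.95 and PCNA at -0.68, while MCM2 (0.14), MCM5 (0.17) and E2F1 (0.29) stood above 0. MSTO-211H replicate 3 also had the highest histone sum of that line with DMSO, at 106283 CP20M beside 55365 and 49883.

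**Figure D4:**
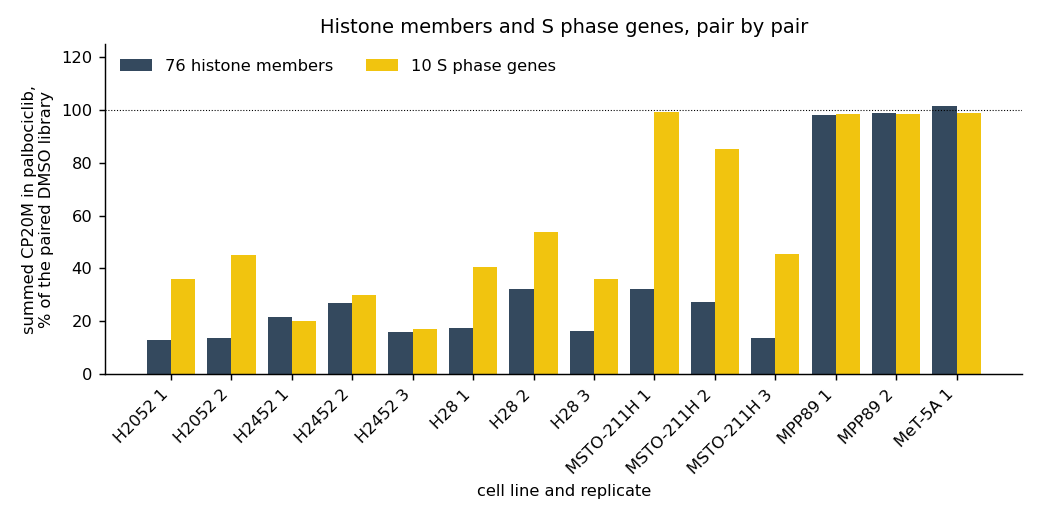
Summed CP20M after palbociclib as a percentage of the paired DMSO library, for the 76 histone members (dark bars) and the 10 S phase genes (yellow bars), 1 set of bars per pair. The bars start at 0 and the dotted line marks 100%. Histone bars lie between 13.1% and 32.3% in the sensitive lines and between 98.1% and 102% in the resistant ones, while the S phase bar of the first MSTO-211H pair reaches 99.2%.

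Most factors that act on histone genes and their mRNAs were not called. Of 17 such genes 2 were called lower over the sensitive lines, a count near the 9.37% of all genes, and none higher. They were CCNE2, cyclin E2 (-1.23, SE 0.17), and its kinase CDK2 (-1.14, SE 0.25). CDK2 stood at -0.11 in MSTO-211H, -0.75 in H2052, -1.31 in H28 and -2.26 in H2452. CCNE1, the other cyclin E of the list, stood at 0.02 (SE 0.20). By line CCNE1 was at -0.93 in H2452, -0.04 in H2052 and 0.25 in H28, and was called higher within MSTO-211H (0.79, SE 0.15). NPAT (-0.38, SE 0.07), SLBP (-0.34, SE 0.09) and CASP8AP2, an NPAT partner in the histone locus body (-0.57, SE 0.07), lay under the fold limit. Of 14 histone chaperones 6 were called lower, beside the same 9.37% of all genes. They were HJURP, the CENPA chaperone (-2.26, SE 0.36), ASF1B (-1.95, SE 0.32), CHAF1B (-1.31, SE 0.20) and CHAF1A (-0.96, SE 0.17), of replication-coupled assembly, NASP, which binds H3-H4 (-1.02, SE 0.13), and RBBP7 (-0.59, SE 0.06), which lies at the fold limit and lost its call when any 1 of several pairs was left out. HIRA, ATRX and DAXX, which serve deposition that is not coupled to DNA replication, were not called (-0.35, -0.14 and -0.20).

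Histone variant genes outside the clusters were mostly lower too. Most of them give polyadenylated mRNA, but H2AFX is known to give both a stem-loop and a polyadenylated form, so the list is no purely polyadenylated contrast. Of 11 tested variants 8 were called lower and none higher, beside 9.37% and 5.58% of all genes, with a median of -0.86. H1FX (-1.59, SE 0.09), H2AFX (-1.51, SE 0.21) and H2AFZ (-1.17, SE 0.16) fell most, and CENPA (-0.90, SE 0.14), H2AFV (-0.89, SE 0.10), H3F3B (-0.86, SE 0.08), H3F3A (-0.72, SE 0.08) and H1F0 (-0.66, SE 0.13) were the others. The call of H1F0 was lost without MSTO-211H (-0.57, SE 0.16). Summed variants kept 43.0% to 76.4% of DMSO over the 11 pairs. Among RNAs without a poly(A) tail, RN7SK (-0.14, SE 0.08), RMRP (-0.03, SE 0.08), RPPH1 (0.11, SE 0.09) and SCARNA2 (0.04, SE 0.08) were not called. The mitochondrial ribosomal RNAs MT-RNR1 (0.38, SE 0.48) and MT-RNR2 (0.61, SE 0.29), followed beside them, were not called but varied widely between replicates. MT-RNR2 ranged from 459 to 41739 CP20M and was called higher within H28 (1.04, SE 0.16). With DMSO and with palbociclib, replicate 2 of H2452, H28, MSTO-211H and MPP89 had at least 12228 CP20M of it. Replicate 1 of these lines had at most 2456, and no H2052 library had more than 1429. In H28 MT-RNR2 had 1581, 17771 and 1958 CP20M with DMSO and 13952 after washout. The replicate 2 pairs kept the largest share of the histone sum in H2452 (26.8%) and H28 (32.3%). In MSTO-211H replicate 2 kept 27.4%, between the 32.0% and 13.8% of its other pairs. Whether this difference between libraries touches the histone values was not tested. TERC, the telomerase RNA, was called lower (-0.73, SE 0.21), with -0.16 in MSTO-211H, -0.29 in H28, -0.76 in H2452 and -2.17 in H2052. Its call was lost without H2052 (-0.40, SE 0.10), without H2052 replicate 2 alone (-0.54, SE 0.15) and without H2452 (-0.71, SE 0.28). The part of RNA selection in the histone values was not tested.

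After 48 h without palbociclib the summed histone members stood above palbociclib and below DMSO in each line. In H2052 their sum was 36618 CP20M with DMSO, 5068 with palbociclib and 17912 after washout. H2452 had 64942, 10408 and 28906 CP20M, H28 had 100065, 16406 and 27531, and MSTO-211H had 106283, 14613 and 42444. The washout library thus held 48.9%, 44.5%, 27.5% and 39.9% of its paired DMSO library in these lines, in that order. On this measure H28 was lowest. The unpaired DMSO libraries had 63985 CP20M in H2052 and 55365 and 49883 in MSTO-211H. They had 61722 and 61777 in H2452 and 104378 and 78747 in H28. The shares and the order of the lines therefore depend on which DMSO library was paired. In every line the washout sum lay between those of its paired libraries, and each line has 1 washout library.

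Against palbociclib, 32 of 64 members were called higher after washout by limma, where 1.40% of all genes were called higher, and 0 lower, where 0% of all genes were (2322 genes had an unadjusted p under 0.05 in either direction). The median log2 fold change was 1.59. HIST1H2BO rose most (2.75, SE 0.30), followed by HIST1H2AL (2.59, SE 0.34) and HIST1H3B (2.58, SE 0.32). HIST1H2BO went from 594 to 32 to 290 CP20M in H2052, from 1136 to 22 to 474 in H2452, from 2346 to 202 to 647 in H28 and from 1827 to 97 to 645 in MSTO-211H (DMSO, palbociclib, washout). The washout value was between the others in each line. Without H2052, H2452 or MSTO-211H no member was called, and without H28 40 were.

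Against DMSO, 36 of 64 members were called lower after washout, where 2.95% of all genes were, and 0 higher (2.81%, and 0 members at an unadjusted p under 0.05 by limma). The median log2 fold change was -1.20. HIST2H2AB had the largest deficit (-1.90, SE 0.19), followed by HIST1H3H (-1.70, SE 0.20) and HIST2H3D, an H3 gene of chromosome 1 (-1.64, SE 0.17). Without MSTO-211H 20 members were called. Of members with at least 100 CP20M in the DMSO library, 53 of 53 in H2052, 57 of 57 in H2452, 35 of 37 in H28 and 52 of 52 in MSTO-211H lay above their palbociclib level. The share of all genes above palbociclib is not given for single lines. Among these members the median share of DMSO was 49.3%, 39.8%, 25.5% and 37.8%. The limit was set on that same DMSO library, which favours a low share. HIST1H4I in H28 was above DMSO, at 217%, and HIST4H4 had the highest share in H2052 (81.4%) and MSTO-211H (71.7%).

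The S phase list stood nearer to DMSO after washout. Its sum was at 115%, 83.5%, 56.5% and 80.2% of the DMSO library in H2052, H2452, H28 and MSTO-211H. Of its 10 genes 5 were called higher than with palbociclib (PCNA, RRM2, TYMS, CDC45 and RRM1) and 0 were called lower than DMSO by limma, beside 36 of 64 histone members, and 1 was at an unadjusted p under 0.05. RRM2 stood at -0.10 against DMSO and PCNA at -0.56, both without a call. Without any 1 line, 0 of the 5 calls against palbociclib were kept. By histone class, the washout library held between 40.9% (H1) and 58.7% (H2B) of DMSO in H2052 and between 37.7% (H3) and 51.4% (H2B) in H2452. In H28 the classes lay between 21.8% (H3) and 31.1% (H2B), and in MSTO-211H between 34.6% (H1) and 49.0% (H4), so that the order of the classes differed between lines. The 2 washout comparisons share their washout libraries, so their values for a gene are not independent.

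**Figure D5:**
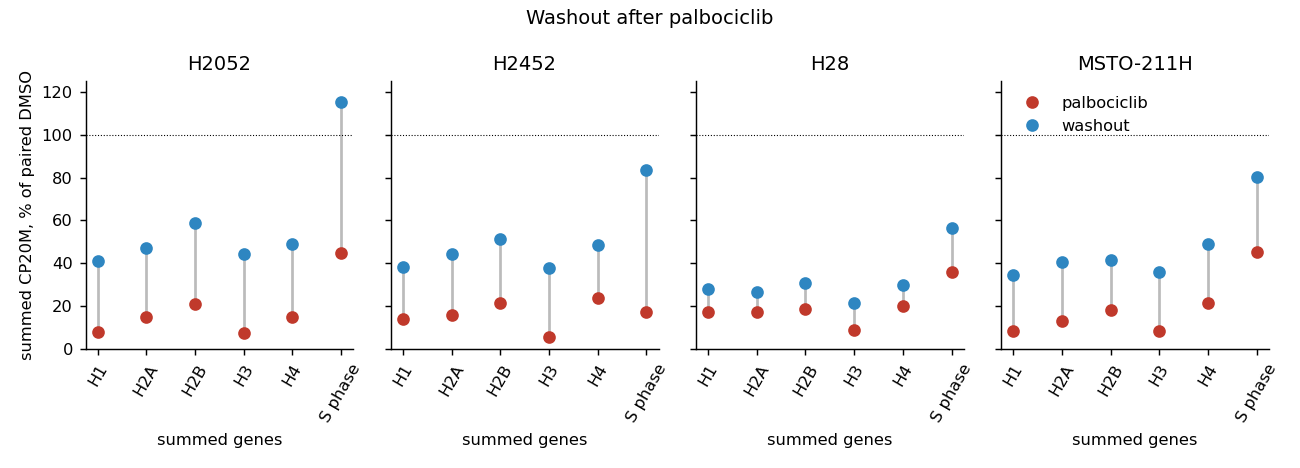
Summed CP20M of each histone class and of the 10 S phase genes, as a percentage of the paired DMSO library, with palbociclib (red) and after 48 h of washout (blue), in 1 experiment per line. The dotted line marks 100%. Every histone class rises between red and blue and stays at or below 58.7% of DMSO, and the S phase genes reach 56.5% to 115%.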

How the data were processed

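Total RNA (100 ng) of 33 libraries was sequenced by the authors with a directional kit. Selection of poly(A) RNA is not given in the sources used here. Per the submitters' processing notes and the study's methods, reads were trimmed (Trimmomatic 0.36), mapped with STAR 2.5.3 to GRCh38 with Ensembl release 90, counted with HTSeq 0.9.1 and tested with DESeq2. The deposited values are a whole-number score, counts scaled to a common total (CP20M) and rounded up. They are not raw counts, so no count model was run, and the strand setting of the counting is not given.

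Genes with at least 100 CP20M in 1 library were tested with limma 3.58.1 (R 4.3.3, eBayes with trend) on log2(CP20M + 10), with experiment as a block. A fold change is on that scale and understates low genes. Experiments paired the samples per the study's methods, and deviations of paired libraries correlated at r of 0.18 to 0.78. No other per-sample columns were left out. Of 2 replicate libraries at most 4.33% of tested values were equal. Within a line, p-values measure the spread between experiments on 1 population. In fits over several lines that spread also holds differences of response between lines, and experiments on 1 line count as separate replicates. The contrast of sensitive with resistant rests on 4 and 2 lines. The near-identical HIST2H2AA3/HIST2H2AA4, HIST2H3A/HIST2H3C and HIST2H4A/HIST2H4B can lose reads that map to both copies.

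The members and lists were chosen with earlier results of these data known. Named in each class were up to 3 largest called falls and rises seen in at least 10 of 11 pairs, the 2 highest DMSO means, the polyadenylated and germ line lists, the 5 smallest F test p, the 3 largest changes per washout comparison and called genes of the pathway lists. Members outside these rules (uncalled or silent ones, HIST1H4I, HIST1H1B and the divergent pairs) were named after their values were seen. Alternatives were other pseudocounts (1 and 50), filters, scalings, no trend, no block and leaving out pairs, libraries or lines. Sums of members were described without a test. Stem-loops were searched in GENCODE 44 transcripts (the histone stem-loop, with 6 paired bases and a loop of 4), and promoters came from RefSeq (GRCh38.p14). The procedure was tested on simulated data. Python 3.11.15 and pandas 2.3.3 were used.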

Additional observations from a re-analysis of the deposited data

Results flagged for a closer look

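Differences between groups were tested as such. The sensitive lines fell further than the resistant lines for 40 of 64 members by the interaction term, and 30 of 64 members differed among the 4 sensitive lines by the F test, where 37.1% of all genes did. Some members had F test results that were looked at singly (limma, adjusted over all genes). The adjusted p was 9.96e-06 for HIST1H3F, 3.95e-05 for HIST1H2BH and 0.000218 for HIST1H4F, which were counted in H2452 and silent with DMSO in the other sensitive lines. It was 0.000124 for HIST1H4L, which fell in H2052, H2452 and MSTO-211H and was silent in H28. For these 4 members the test restates which lines use the gene, since a silent gene cannot fall. It was 7.54e-05 for HIST1H2BE and 0.00032 for HIST1H4I, which rose in H28 and fell in H2052.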

How the results depend on the processing

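Over the sensitive lines 53 to 56 members were called lower when any 1 pair or line was left out, and 57 with no replicate block. The interaction gave 31 to 33 calls without 1 resistant pair and 45 without the block, and the F test among sensitive lines 23 to 32 and 21. With no filter 0 members were called in the washout against palbociclib, 18 were lower in the washout against DMSO, and 0 were called lower or higher within H2052, H2452, H28 or MSTO-211H, a setting that tests every gene of the matrix. With no trend 0 were called within H2052. Without 1 line the washout calls ranged from 0 to 40 against palbociclib and from 20 to 41 against DMSO. Without 1 pair the calls within a line ranged from 0 to 48 in H2452 and were 0 in H28, in both directions, and in MSTO-211H. Without the block 1 member was called higher in H28 in place of 2, and the block moved no other count by more than 1.5 times. The mean log2 ratio of the H2A sum was -2.84 without the polyadenylated list. Leaving out 1 line, HIST1H4F ranged from -0.66 (without H28) to 0.016 (without H2452) and HIST1H2BH from -1.54 to 0.013, reversed without H2452, where both are used. Other causes of these changes were not tested. Of 308 counts and sums recomputed, 283 stayed within 1.5 times or the spread between pairs. Scaling to the median of ratios shifted the median of all genes from -0.11 to 0.06. Values near 1 read (up to 1.58 CP20M) limit statements on silent members.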
